A study of Homo sapiens with 3 samples.

Results

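Molecular chaperones of the heat shock families were followed through the polysomes of the human embryonic stem cell line H9, an established line. Genes were taken by symbol: the HSP70 and HSP110 genes (HSPA, HSPH), both cytosolic HSP90 genes, the small heat shock proteins (HSPB), the mitochondrial chaperonin (HSPD1, HSPE1), the subunits of the cytosolic chaperonin (TCP1 and the CCT genes), the J proteins (DNAJA, DNAJB, DNAJC), the BAG cochaperones and STIP1. HSPA5 and DNAJB9, chaperones of the endoplasmic reticulum, were left out by the rule. The rule found 79 genes among the 18417 that the array names by a single symbol, and 67 of the 79 passed a filter on low levels that 12064 genes passed in all. AHSA1, which the rule also names, is not among the genes listed for the probe sets and is not analysed here. HSPA1A and HSPA1B, the stress-induced HSP70 genes, share probe sets that list both symbols, and they are not measured here for that reason.

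All cells were H9 cells held under pluripotent conditions, with no other treatment given in the labels. The 3 sources of RNA were the polysome-bound pool, whose mRNAs have several ribosomes on them, the polysome-unbound pool, which is free of polysomes, and unfractionated total RNA. There was 1 Affymetrix array for each, so no difference given here has a replicate check, no p-value is given, and "at least 2-fold" marks size alone. Total RNA was purified with another column kit than both polysome pools. In comparisons with total RNA the kit therefore cannot be told apart from the RNA source.

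Chaperones bind proteins that are not yet folded. HSP70 proteins grip short greasy stretches of a chain in cycles of ATP use, and J proteins bring the chain to HSP70 and start its ATPase. Nucleotide exchange factors, among them the HSP110 proteins and several BAG proteins, release the chain again. HSP90 finishes the folding of kinases and receptors, and the chaperonins enclose a protein in a barrel, the cytosolic one being known for folding actin and tubulin. Some members are made all the time (HSPA8, HSP90AB1), and others are known for their rise in stress under the transcription factor HSF1 (HSP90AA1, DNAJB1, HSPH1).

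The values are log2 levels, and the arrays do not share a scale: over the 12064 genes the bound array had a median of 7.23, the unbound array 5.96 and the total RNA array 6.20. A relative difference is the log2 difference of 2 arrays minus the difference of those medians, 1.26 for bound minus unbound, 1.03 for bound minus total and -0.23 for unbound minus total. A relative difference of 1 is 2-fold. Background was set at the level that 95% of 481 genes of other tissues (defensins, keratin-associated proteins, taste and olfactory receptors) stay under, and it was 4.39 on the bound, 3.56 on the unbound and 3.75 on the total RNA array. In total RNA, 16 of 19 pluripotency markers were above it, as were 10 of 12 fibroblast, 9 of 12 germ layer and 6 of 8 trophoblast or amnion markers. Levels of different genes come from different probes and are not compared with each other.

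Most of the network was present. Above background were 68 of the 79 genes in bound RNA, 67 in unbound RNA and 67 in total RNA. The HSP90 genes (2 of 2), the cytosolic chaperonin (9 of 9), the mitochondrial chaperonin (2 of 2), the BAG genes (6 of 6) and STIP1 all passed the level filter, as did 11 of 12 HSP70 and HSP110 genes, 24 of 25 DNAJC, 3 of 4 DNAJA and 8 of 12 DNAJB genes. Of 6 small heat shock proteins only HSPB1 passed. The 12 genes that did not pass were HSPB3, HSPB6, HSPB7, HSPB8, HSPB9, HSPA6, DNAJA4, DNAJB3, DNAJB7, DNAJB8, DNAJB13 and DNAJC22. HSPA6, an HSP70 gene known for being silent without stress, read 4.12 in bound, 3.05 in unbound and 3.61 in total RNA, below background on each array. HSPB8 read 4.45 in bound RNA, just above background, and 3.25 in unbound and 3.33 in total RNA, both below it.

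Bound RNA was first set against unbound RNA, which asks which chaperone transcripts are engaged by polysomes. Relative to the array medians, some members lay toward the unbound side. HSPA8, the constitutive cytosolic HSP70, and HSP90AB1, the constitutive HSP90, had lower relative levels in bound RNA, together with 4 subunits of the cytosolic chaperonin (CCT8, CCT3, CCT2, CCT4) and HSPD1, the mitochondrial HSP60. DNAJC28 and DNAJC4 completed the 9 members that were at least 2-fold lower. No member was at least 2-fold higher, and DNAJC21, a J protein of ribosome assembly, came nearest at a relative difference of 0.99. Of all 12064 genes, 9.92% were at least 2-fold lower and 6.33% at least 2-fold higher. The 9 lower members were 13.4% of the 67, a share near that background. After quantile normalization 3 of them stayed at least 2-fold lower (CCT8, DNAJC28 and DNAJC4), with 7.26% of all genes lower on that scale. HSPA8, HSP90AB1, CCT2, CCT3 and CCT4 also fell short of 2-fold after removal of the trend with signal level. The median relative difference was -0.23 for the 67 members and -0.07 for all genes.

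**Figure D1:**
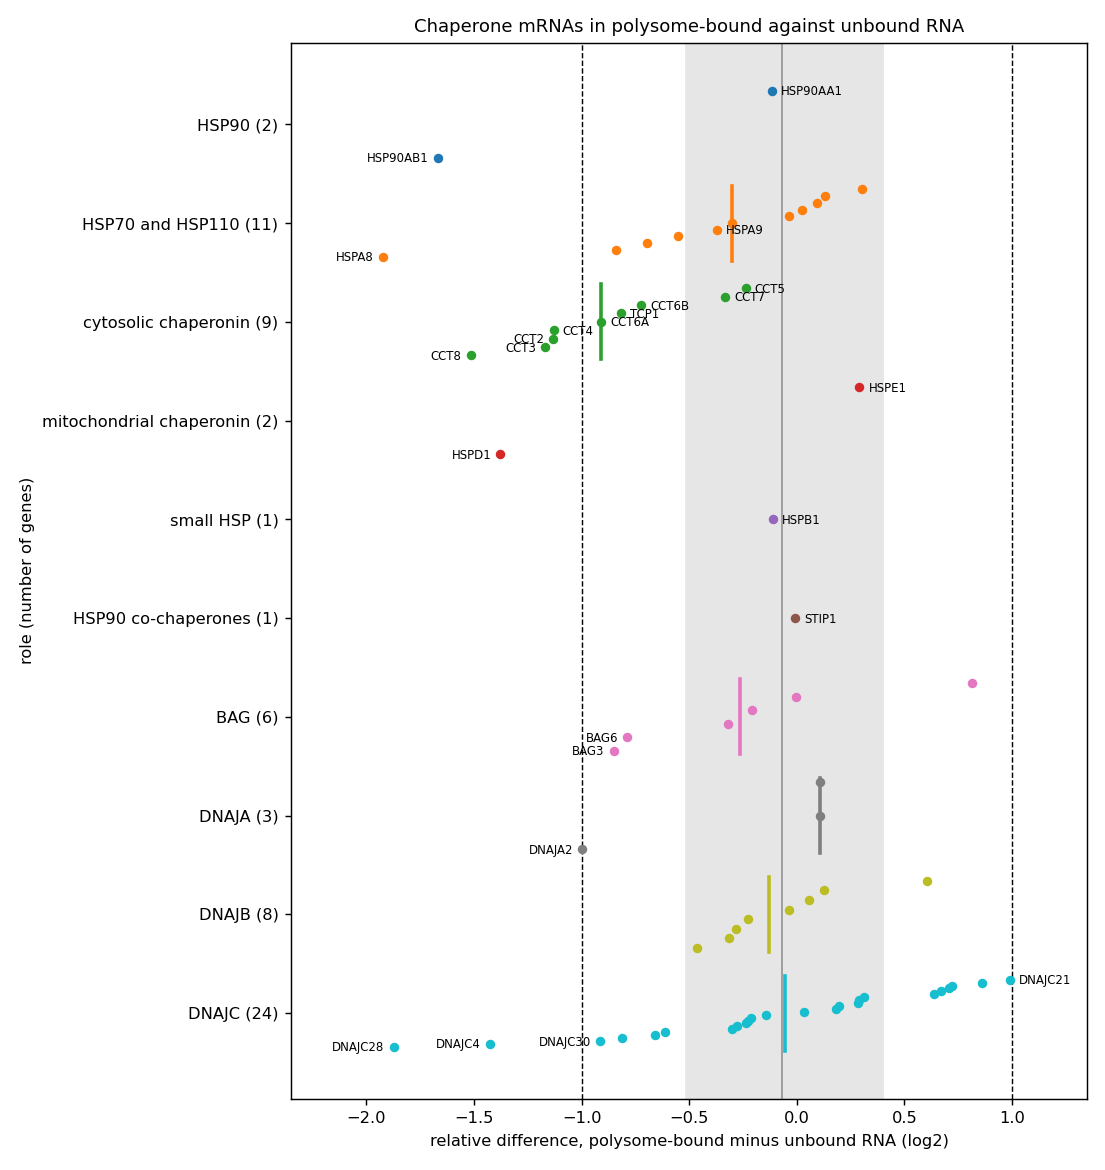
Relative difference (log2) of polysome-bound minus unbound RNA for the 67 chaperone genes past the level filter, 1 point a gene, grouped by role, with the median as a coloured bar for groups of more than 2 genes. The grey band spans the middle 50% of all 12064 genes, the grey line is their median (-0.07) and the dashed lines mark 2-fold. HSPA8 (-1.92, and -0.34 after quantile normalization) is furthest left, and no gene reaches the right dashed line. All 9 cytosolic chaperonin genes lie below 0 on this scale, as do 44 of all 67 genes shown. TCP1, CCT7 and CCT5 lie above 0 after quantile normalization.

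The HSP90 paralogs parted. HSP90AB1 had a log2 level of 11.52 in bound RNA, against 11.93 in unbound RNA, with 12.18 in total RNA. HSP90AA1, the stress-inducible paralog, had 11.11 in bound RNA, against 9.96 in unbound RNA, with 11.90 in total RNA. The relative differences for bound minus unbound were therefore -1.67 for HSP90AB1 (3.18-fold lower) and -0.12 for HSP90AA1. After quantile normalization HSP90AB1 was at -0.24 and HSP90AA1 at 0.83, and after removal of the trend with signal level they were at -0.57 and 0.60, so that HSP90AB1 was not 2-fold lower on either scale. The gap between the paralogs was -1.55, and it lay between -1.06 and -1.55 under every scaling tried. STIP1, the adaptor that hands clients from HSP70 to HSP90, had 9.73 in bound RNA, against 8.47 in unbound RNA, a relative difference of -0.0074.

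Among the HSP70 and HSP110 genes only HSPA8 was at least 2-fold apart. It had 11.93 in bound RNA, against 12.59 in unbound RNA, with 12.69 in total RNA, and at 3.79-fold lower it was the lowest of the 67 genes on the median scale. After quantile normalization it was at -0.34 and after removal of the trend with signal level at -0.59, neither 2-fold nor the lowest, since DNAJC28 was then lowest. HSPA9, the mitochondrial HSP70, had 9.89 in bound and 9.002 in unbound RNA (relative difference -0.37). HSPA4, an HSP110-type exchange factor, had 9.70 in bound and 8.48 in unbound RNA (-0.04), and HSPA4L had 0.09. HSPH1, the heat-induced HSP110, was at -0.55 and HSPA13, a microsomal HSP70, at 0.02. The highest of this group was HSPA14 (0.30), a ribosome-associated HSP70, with 6.96 in bound and 5.396 in unbound RNA. Its J protein partner on the ribosome, DNAJC2, also lay on the bound side, with 7.27 in bound and 5.37 in unbound RNA (0.64). HSPA2 (-0.70) and HSPA1L (-0.84), HSP70 genes known from the testis, read close to background (HSPA1L is also close to HSPA1A in sequence, so its signal is uncertain), and so did HSPA12B (-0.30).

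All 9 genes of the cytosolic chaperonin were below 0, with a median of -0.91, as were 44 of all 67 members and 6497 of all 12064 genes. After quantile normalization TCP1 (0.56), CCT7 (0.40) and CCT5 (0.15) were above 0. After removal of the trend with signal level TCP1 (0.16) and CCT7 (0.16) were. At least 2-fold lower were 4 of the 9. CCT8 had 7.95 in bound RNA, against 8.20 in unbound RNA (relative difference -1.52). CCT3 had 9.61 in bound and 9.52 in unbound RNA (-1.17), CCT2 had 10.20 and 10.07 (-1.13), and CCT4 had 9.90 and 9.76 (-1.13). CCT6A (-0.91), TCP1 (-0.82) and CCT6B (-0.72), a testis form of the CCT6 subunit, came next. CCT7 (-0.33), with 10.67 in bound and 9.74 in unbound RNA, and CCT5 (-0.24), with 9.93 and 8.91, were nearest to the other genes. Subunits of this complex, which assemble in equal numbers, were thus spread over 1.28 log2 units between CCT8 and CCT5. CCT8 stayed the lowest subunit under both other scalings, at -1.45 and -1.61.

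**Figure D2:**
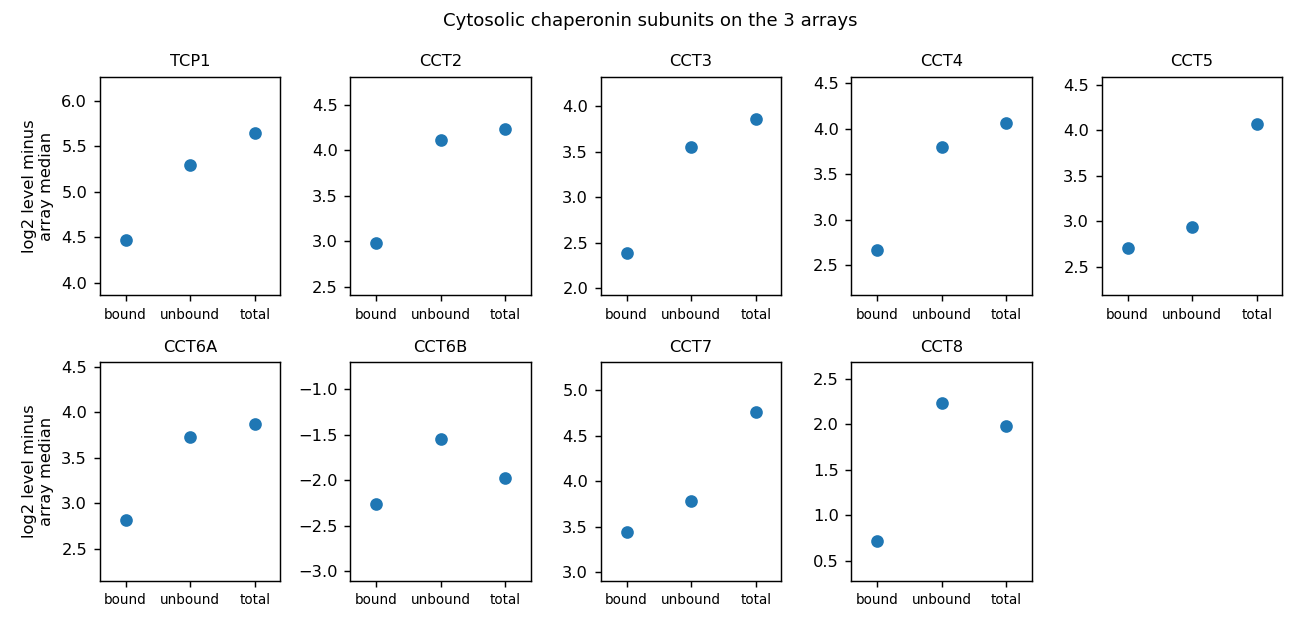
Level of each cytosolic chaperonin gene on the 3 arrays, 1 panel a gene, as log2 level minus the median of that array over 12064 genes (1 array a source, no error bars). The vertical axes span the same range in every panel but start at different values. On this scale bound RNA is the lowest point in all 9 panels (after quantile normalization TCP1, CCT7 and CCT5 are higher in bound than in unbound RNA), and CCT5 and CCT7 differ from the others in that unbound RNA lies nearer to bound than to total RNA.

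The mitochondrial chaperonin split as well. HSPD1, the HSP60 barrel, had 9.69 in bound RNA, against 9.80 in unbound RNA, with 10.25 in total RNA (bound minus unbound -1.38). HSPE1, the HSP10 lid of that barrel, had 7.58 in bound RNA, against 6.03 in unbound RNA, with 7.17 in total RNA (0.29). The gap of -1.67 between them lay between -1.33 and -1.95 under the other settings. These genes are neighbours on opposite strands of chromosome 2: in RefSeq (GRCh38.p14) the annotated starts of HSPD1 lie 105 and 539 bases from that of HSPE1. RefSeq also holds 22 pseudogenes named for HSPD1, 28 for HSPE1 and 20 for HSPA8, and how far such copies add to the probe signals was not tested.

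Among the genes of the BAG family none was 2-fold apart. BAG3, which links HSP70 to autophagy and is induced in stress, was lowest at -0.85, with 6.84 in bound and 6.43 in unbound RNA, and BAG6, which sorts membrane proteins with a tail anchor, was at -0.79. BAG5 (-0.32), BAG2 (-0.21) and BAG1 (-0.0024) were within the middle 50% of all genes. BAG4 was on the bound side (0.82), with 7.999 in bound and 5.92 in unbound RNA. The small heat shock protein HSPB1 had 8.13 in bound and 6.97 in unbound RNA (-0.11).

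J proteins covered a wide range. The 24 DNAJC genes had a median of -0.05, with 12 above and 12 below 0. On the bound side were DNAJC21 (0.99), with 9.07 in bound and 6.81 in unbound RNA, DNAJC14 (0.86), the endoplasmic reticulum reductase DNAJC10 (0.72), the mitochondrial DNAJC11 (0.71), the endosomal DNAJC13 (0.67), DNAJC2 (0.64) and DNAJB11 (0.60), the HSP70 partner of the endoplasmic reticulum. On the unbound side, DNAJC28 had 4.82 in bound RNA, against 5.43 in unbound RNA, with 4.05 in total RNA (bound minus unbound -1.87). DNAJC4 had 5.86 in bound RNA, against 6.02 in unbound RNA, with 4.83 in total RNA (-1.43). DNAJC30, a mitochondrial J protein, followed at -0.92, DNAJC27 at -0.81 and DNAJC24, a factor in making diphthamide, at -0.66. The general HSPA8 partners differed among themselves: DNAJA2 was at -0.997, just short of 2-fold, while DNAJA1 was at 0.11 and DNAJB1, the stress-inducible HSP40, at -0.46. DNAJB6, which holds back aggregation, was at -0.28, the mitochondrial DNAJA3 at 0.11, DNAJC7 at -0.14, the spliceosomal DNAJC8 at 0.29, DNAJC5, a chaperone of synaptic vesicles, at 0.31 and the mitochondrial import factor DNAJC19 at 0.20. A second probe set of DNAJC19 gave -0.28. The remaining J proteins lay between DNAJC1 (-0.61) and DNAJC3 (0.28), both of the endoplasmic reticulum, and the neuronal clathrin uncoating factor DNAJC6 was at -0.30.

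Near the 2-fold line, CCT2 and CCT4 (-1.13) were the nearest inside it and DNAJA2 (-0.997) and DNAJC21 (0.99) the nearest outside. As deposited, without relating the values to the array medians, bound RNA was at least 2-fold higher for 36 of the 67 members and lower for 0, while 61.4% of all genes were higher and 1.56% lower. With the lowess trend of the difference on level removed, 4 of the 9 lower members stayed past 2-fold, or 4 of 67 against 9.38% of all genes on that scale: CCT8 (-1.61), DNAJC28 (-1.75), DNAJC4 (-1.41) and HSPD1 (-1.11). HSPA8 was then at -0.59 and HSP90AB1 at -0.57. Both give strong signals on every array. The gap between HSPA8 and HSPA4 kept its sign on that scale but shrank to -0.65, against -1.89 without the correction.

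**Figure D3:**
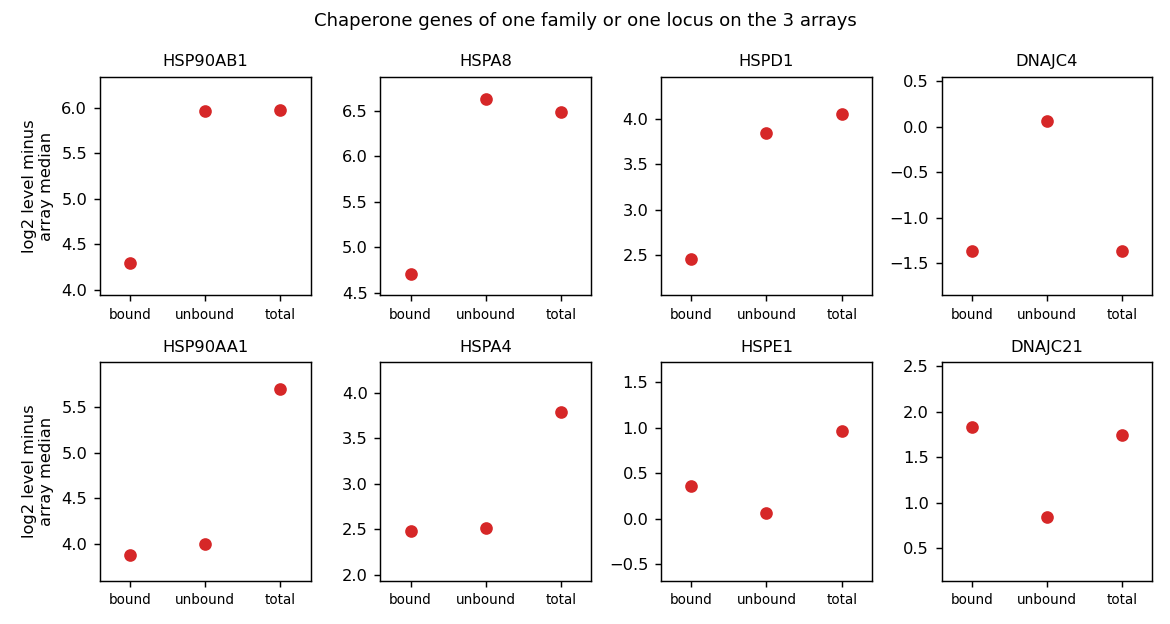
Level of 8 chaperone genes on the 3 arrays, as log2 level minus the median of that array over 12064 genes (1 array a source, no error bars), with axes that span the same range in every panel but start at different values. On this scale HSP90AB1, HSPA8 and HSPD1 stand about as high in unbound as in total RNA, while HSP90AA1 and HSPA4 stand low in both bound and unbound RNA. After quantile normalization unbound minus total is -0.49 for HSP90AB1 and -0.34 for HSPA8. DNAJC4 is high in unbound RNA and DNAJC21 low.

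The first bases of the members' mRNAs were also read. mRNAs that begin with a C and an unbroken run of pyrimidines (the terminal oligopyrimidine motif of ribosomal protein mRNAs) are known to leave polysomes when growth signalling is low. RefSeq promoter windows (GRCh38.p14, 250 bases before to 50 after each annotated start) were found for 71 of the 79 members. A start at C followed by at least 4 more C or T was searched on the gene's own strand. It was found at 1 or more annotated starts of 6 of the 60 members examined past the level filter, or 10%, against 7.4% of 9715 genes past the filter. The share of 4.07% over all windows is counted by window with no filter, so it is not set against the 10%. The first 20 bases of the starts found in these 6 members are printed 5′ to 3′ as the mRNA reads, with the leading pyrimidines in capitals.
DNAJC4, chr11:64230548-64230567, plus strand: CCCTCCTTCTCCCgtcccca
HSPD1, chr2:197499821-197499840, minus strand: CCCTCactcgccgccgacga
CCT4, chr2:61888637-61888656, minus strand: CTTCTCCgcctccgcctcct
DNAJC30, chr7:73683434-73683453, minus strand: CTCTTgcaccgcctgccgaa
DNAJC16, chr1:15526848-15526867, plus strand: CTCTTTCCCCTCCCCaggcc
DNAJC7, chr17:42017143-42017162, minus strand: CTTCCTCTCCCgcttccgcc

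DNAJC4, HSPD1 and CCT4 are 3 of the 8 examined members past the 2-fold line on the unbound side. DNAJC30 was at -0.92, while DNAJC16 (-0.23) and DNAJC7 (-0.14) were close to the other genes. All 6 were thus below 0 on this scale, as were 44 of all 67 members and 6497 of all 12064 genes. DNAJC7 was at 0.14 after quantile normalization, and with centring over all probe sets DNAJC7 was at 0.18 and DNAJC16 at 0.097. The median of the 6 was -1.02, against -0.16 for the 54 other members with a window. Over all genes past the filter, the 719 with such a start had a median of -0.41, against -0.02 for those without. The match is of letters at annotated starts. DNAJC4, HSPD1, CCT4 and DNAJC7 each have a further annotated start without it, and which start these cells use is not known from the arrays. For comparison, the starts of the other examined members at least 2-fold lower follow in the same way, then those of HSP90AA1, HSPE1 and DNAJC21, which were not.
HSPA8, chr11:123062117-123062136, minus strand: CTCattgaactcgcctgcag
DNAJC28, chr21:33491382-33491401, minus strand: gcaggaccgacctcccttgc
CCT8, chr21:29073629-29073648, minus strand: CCTCgcttcctccgcggtct
CCT3, chr1:156338273-156338292, minus strand: gtaagccctgaggaggcagc
CCT2, chr12:69585459-69585478, plus strand: agtccgctggtcccgagcac
CCT2, chr12:69585889-69585908, plus strand: gcagccttccgagggtggaa
HSP90AA1, chr14:102087025-102087044, minus strand: agttgcttcagcgtcccggt
HSPE1, chr2:197500379-197500398, plus strand: gcgagtctctttgcggcgct
DNAJC21, chr5:34929559-34929578, plus strand: atgcgaagcggcggccgccg

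HSPA8 and CCT8 start with C but have 3 and 4 pyrimidines before the first purine, 1 or more short of the length searched. DNAJC28, CCT3 and CCT2, all lower in bound RNA, start with a purine, as do HSP90AA1, HSPE1 and DNAJC21. HSPD1, which was lower in bound RNA than HSPE1, has the run at 1 annotated start and a purine at the other.

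**Figure D4:**
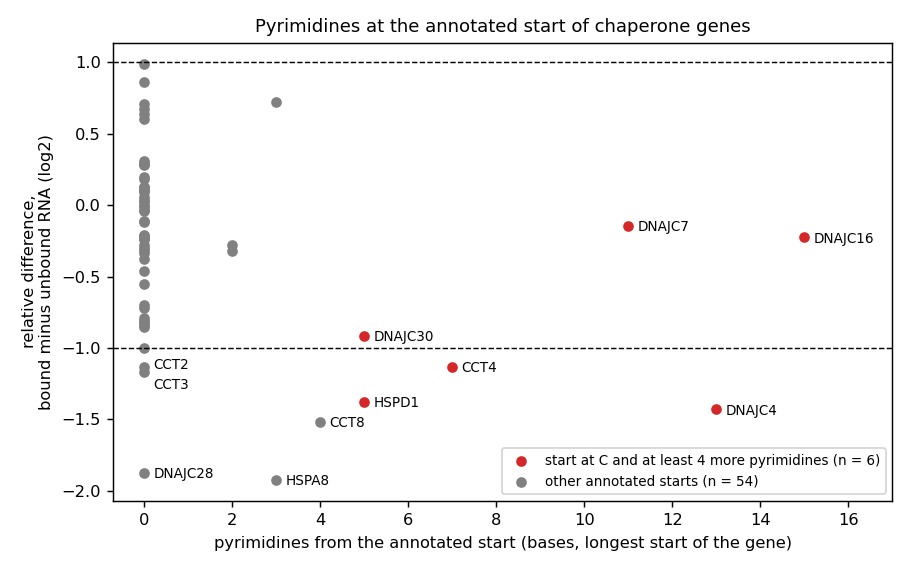
Relative difference (log2) of polysome-bound minus unbound RNA against the number of C or T bases that open the annotated start with the longest such run, for the 60 chaperone genes examined past the level filter. Red points start at C with at least 4 more pyrimidines (6 genes, median -1.02) and grey points do not (54 genes, median -0.16), and dashed lines mark 2-fold. On this scale all red points lie below 0, as do 44 of all 67 members, and HSPA8 and DNAJC28 lie lower still without the run. After quantile normalization DNAJC7 is at 0.14 and HSPA8 at -0.34, and DNAJC7 and DNAJC16 are above 0 with centring over all probe sets.

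Against total RNA, bound RNA had both HSP90 genes, HSPA8, HSPD1 and most chaperonin subunits at lower relative levels. In this comparison 20 of the 67 members were at least 2-fold lower and 0 at least 2-fold higher, or 29.9% lower, against 6.41% lower and 2.66% higher among all genes. The members' median was -0.37, and that of all genes -0.14. Lower were 8 of the 9 cytosolic chaperonin genes, from CCT3 (-1.47) to CCT6A (-1.06), with CCT6B (-0.29) as the exception. HSP90AA1 (-1.82) and HSP90AB1 (-1.69) were both lower, as were 5 of 11 HSP70 and HSP110 genes: HSPA8 (-1.78), HSPA9 (-1.76), HSPA4 (-1.31), HSPA2 (-1.24) and HSPH1 (-1.22). HSPD1 (-1.60), STIP1 (-1.34), DNAJB5 (-1.07), BAG2 (-1.01) and DNAJA2 (-1.01) were the rest. HSPE1 was at -0.61.

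Of the 24 DNAJC genes 0 were at least 2-fold lower or higher, and their median was -0.01. The highest of all members were DNAJC15 (0.77), of the mitochondrial import motor, with 7.54 in bound RNA, against 5.73 in total RNA, then DNAJB2 (0.49), DNAJC5 (0.38) and the histone chaperone DNAJC9 (0.35). Across the 67 members the bound minus total difference went with the mean level (Pearson's r = -0.59, and -0.19 across all 12064 genes). These are descriptions across genes that share the same 3 arrays, and genes are not replicates. After removal of the trend on level 5 members stayed at least 2-fold lower (HSPA9 at -1.16, HSPA2 at -1.04, CCT8 at -1.03, BAG2 at -1.03 and DNAJB5 at -1.0005), and 3.59% of all genes were lower on that scale. Of the pluripotency markers past the filter, 8 of 16 were also at least 2-fold lower in this comparison and 0 higher (median -0.94), and their part in the result was not tested. Fibroblast markers had 3 of 11 lower and 1 higher, germ layer markers 3 of 10 lower and 2 higher, and trophoblast or amnion markers 0 of 6 lower and 2 higher. Some of these markers were at or below background on 1 of the arrays. As deposited, the bound level was at least 2-fold higher for 17 members and lower for 0, against 40.1% higher and 0.572% lower among all genes.

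**Figure D5:**
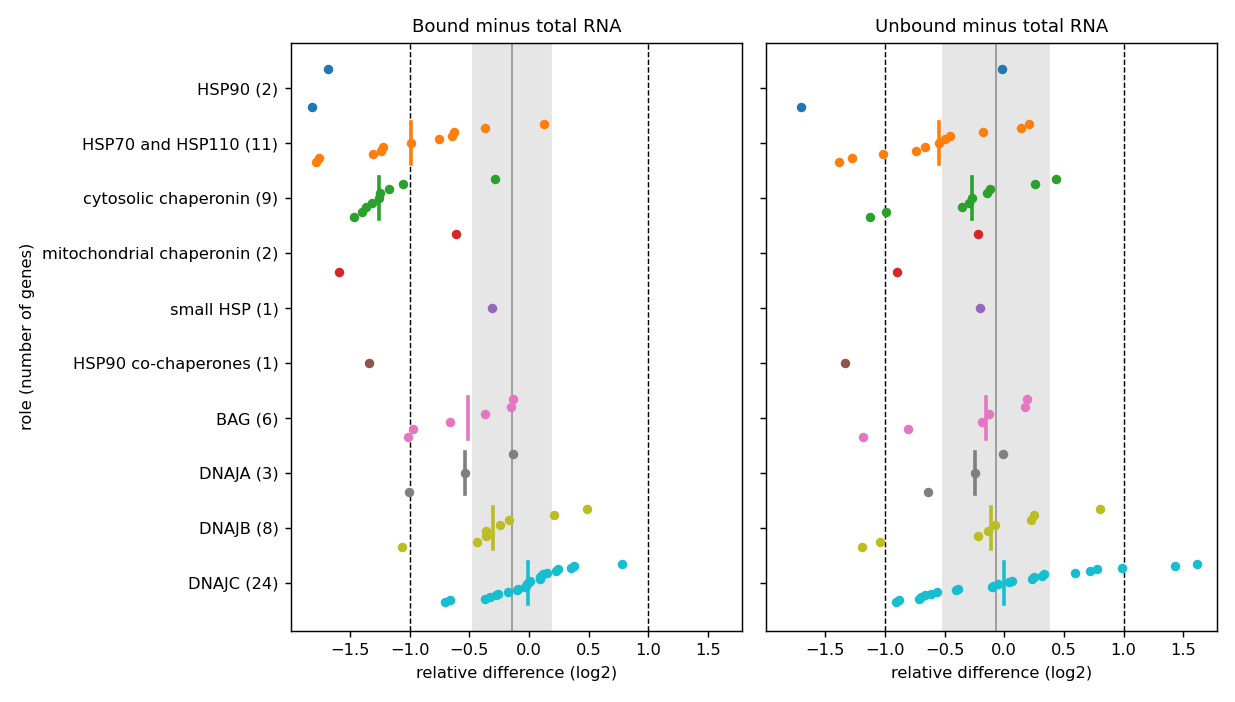
Relative difference (log2) of bound minus total RNA (left) and unbound minus total RNA (right) for the 67 chaperone genes past the level filter, 1 point a gene, with medians as coloured bars for groups of more than 2 genes. The grey band spans the middle 50% of all 12064 genes and the dashed lines mark 2-fold. On this scale, both HSP90 genes and 8 of 9 cytosolic chaperonin genes lie beyond 2-fold lower on the left, and 9 genes do on the right. After quantile normalization, as after removal of the trend with signal level, only CCT8 of these HSP90 and chaperonin genes stays so on the left. On the right 6 genes stay after quantile normalization and 4 after removal of that trend.

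Unbound RNA was then set against total RNA. At least 2-fold lower were 9 of the 67 members and 2 were at least 2-fold higher (13.4% and 2.99%), with 9.94% lower and 8.1% higher among all genes. HSP90AA1 was lowest, with 9.96 in unbound RNA, against 11.90 in total RNA (-1.71, or 3.26-fold lower). It was followed by HSPA9 (-1.38), STIP1 (-1.33), HSPA4 (-1.27), DNAJB5 (-1.19), BAG4 (-1.19), CCT5 (-1.12), DNAJB11 (-1.04) and HSPA13 (-1.01). HSP90AA1 lay between -1.52 and -1.94 under every setting tried. DNAJC28 (1.61), with 5.43 in unbound RNA, against 4.05 in total RNA, and DNAJC4 (1.43), with 6.02, against 4.83, were the 2 higher members, and DNAJC15 (0.99) and DNAJB2 (0.80) followed. As deposited, 14 members were lower and 2 higher, with 16.0% lower and 5.42% higher among all genes.

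Members with like bound minus total values on the median scale therefore differed in unbound RNA. The comparisons share arrays, so the values are set side by side with no further measure. HSPA8 had -1.78 for bound minus total and 0.14 for unbound minus total, HSP90AB1 -1.69 and -0.02, HSPD1 -1.60 and -0.22, and CCT8 -1.26 and 0.26. HSP90AA1 had -1.82 and -1.71, HSPA9 -1.76 and -1.38, HSPA4 -1.31 and -1.27, STIP1 -1.34 and -1.33, and CCT5 -1.36 and -1.12. On this scale unbound RNA was close to total RNA in the first set, and in the second set both polysome pools were below it. After quantile normalization HSPA8 (-0.68) and HSPA9 (-1.24) were no longer alike for bound minus total. For unbound minus total HSPA8 was then at -0.34 and HSP90AB1 at -0.49, with HSPA9 at -1.26 and HSP90AA1 at -1.77.

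Partners of these chaperones were set out in lists by function, and their counts between bound and unbound RNA are read against the 6.33% of all genes that were at least 2-fold higher and the 9.92% that were lower. Of 17 HSP90 partners past the filter 1 was higher, FNIP2 (1.57), a folliculin partner that slows the HSP90 ATPase, and 2 were lower. The lower ones were CDC37 (-1.28), which brings kinases to HSP90, with 9.20 in bound and 9.21 in unbound RNA, and the pseudogene AHSA2P (-2.83). PTGES3, the p23 cochaperone, was at -0.10. Of 11 HSP70 partners none was lower, and only SIL1, an exchange factor of the endoplasmic reticulum, read more than 2-fold higher. SIL1 was below background in unbound RNA, so only a lower limit holds. On the deposited scale the bound level was at least 4.02-fold higher, which relative to the array medians is under 2-fold. STUB1, the ubiquitin ligase that tags HSP70 clients, was at 0.43.

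Prefoldin and the tubulin cofactors, which work beside the cytosolic chaperonin, had 3 of 15 genes lower and 1 higher. PFDN5, a prefoldin subunit, had 8.75 in bound RNA, against 9.88 in unbound RNA (-2.40), and the tubulin cofactors TBCC (-1.58) and TBCA (-1.08) were also lower, TBCA being named after its value was seen. VBP1, another prefoldin subunit, was higher (1.51), with 8.75 in bound and 5.98 in unbound RNA. Of 7 genes of the R2TP and TTT complexes, HSP90 adaptors for large assemblies, none was 2-fold apart, from RUVBL1 (0.88) to TTI2 (-0.54). RUVBL1 (-1.95) and RUVBL2 (-1.15) were at least 2-fold lower in unbound than in total RNA, as were 9.94% of all genes. A list of J proteins under other symbols ran from GAK (0.31), which uncoats clathrin vesicles, to HSCB (-0.59), which serves iron-sulfur cluster assembly. None of its 4 genes was past 2-fold, and DNAJC6, a member given above, is counted among them. HSF1, the heat shock transcription factor, had 7.83 in bound and 6.53 in unbound RNA (0.04), and HSBP1, which binds it, was at 0.89. Of 6 genes listed for organelles (HSP90s, disaggregases, HYOU1 and LONP1) only LONP1, a mitochondrial protease, was past 2-fold (1.07). Against total RNA, bound RNA was past 2-fold lower for 2 of these 6, HSP90B1 (-1.58) and HYOU1 (-1.39) of the endoplasmic reticulum. Unbound RNA was so for 5 of the 6, from HYOU1 (-2.14) to TRAP1 (-1.07). Among all genes 6.41% were lower in bound and 9.94% in unbound RNA, each against total RNA. The partner lists are not given under the other scalings.

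The promoters of several members carry the element that HSF1 binds, units of GAA or TTC spaced by 2 bases in turn. Runs of 3 units (GAANNTTCNNGAA or TTCNNGAANNTTC, which are each other's reverse complement, so both strands are covered) were found in the 250 bases before an annotated start of 6 of the 71 members with a window, or 8.45%, against 0.557% of 27305 genes with a window. HSPA8 and HSP90AB1 hold a second run and HSPD1 an overlapping one, and each gene was counted once. The 5 that passed the level filter are printed on the gene's strand, with the units in capitals, because they include both HSP90 genes and HSPA8.
HSPA8, chr11:123062171-123062199, minus strand: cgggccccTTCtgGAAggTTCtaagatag
HSP90AB1, chr6:44247823-44247851, plus strand: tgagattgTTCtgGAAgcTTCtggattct
HSP90AA1, chr14:102087112-102087140, minus strand: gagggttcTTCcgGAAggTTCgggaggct
HSPD1, chr2:197500060-197500088, minus strand: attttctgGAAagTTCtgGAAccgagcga
DNAJB6, chr7:157336865-157336893, plus strand: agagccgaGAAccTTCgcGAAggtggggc

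The element begins 55 bases before the start of HSPA8 and 131 bases before that of DNAJB6. It begins 88 bases before an annotated start of HSP90AA1 and 240 bases before an annotated start of HSPD1. HSP90AA1 and HSPD1 each have another annotated start, and the element lies after that one on the gene's strand. The sixth gene with a run was HSPA6, which was below background on every array. Of the 5 genes, HSPA8, HSP90AB1 and HSPD1 were at least 2-fold lower in bound than in unbound RNA, and HSP90AA1 (-0.12) and DNAJB6 (-0.28) were not. Among all 12064 genes 9.92% were at least 2-fold lower. The 42 genes past the filter with a run of 3 units had a median of -0.21, against -0.05 for those without. Of HSPA8, HSP90AB1 and HSPD1, none stayed past 2-fold after quantile normalization (-0.34, -0.24 and -0.93). Only HSPD1 (-1.11) did after removal of the trend with signal level. Against total RNA, HSP90AA1, HSPA8, HSP90AB1 and HSPD1 were lower in bound RNA, as given above, and DNAJB6 was at -0.36. A match of letters shows no binding in these cells.

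Longer genes lay somewhat more to the bound side. Across the 67 members the bound minus unbound difference had a Pearson's r of 0.37 with the log2 of the genomic span, and across 12056 genes with a span r was 0.32, again across genes that share the arrays. With that trend removed, all 9 lower members stayed at least 2-fold lower, and HSPA8 was at -1.60.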

How the data were processed

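The deposited table holds log2 levels of 33297 probe sets on each of 3 arrays, as the authors made them. Partek 6.5 and RMA are named in the submitters' processing notes. The scaling between arrays and a genome build are not given in the sources used here. All 33297 values of the bound array are written with 7 decimals, more than on the other arrays, so a constant may have been added to them. That would not alter differences taken relative to array medians.

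From GEO's platform annotation, a single symbol was taken for 19460 probe sets. The 1754 with several symbols and the 12083 that the annotation leaves out were not named. The 79 genes have 85 probe sets, and where a gene has several, the one with the highest mean was used. The level filter asked for a mean log2 level above 3.84, which is the 95th percentile among the background genes. Calls are differences of at least 1 (2-fold) in relative difference, with no test. The precision is limited by the single array per source. Members, gene lists and comparisons were chosen with earlier results of these data known. Any member could be named. By plan, the genes to be named from a partner list were the 2 highest, the 2 lowest and those of a fixed set. Not all of these are named in the text, and TBCA was added. Genomic spans, promoters and starts are from RefSeq (GRCh38.p14). The first bases of 1 member, HSP90AB1, are not reported here, so it enters no count of pyrimidine starts. The scripts were tested on simulated data. Alternatives covered filter, scaling, probe set choice, fold line and genomic span. Scripts ran under Python 3.11.15 with pandas 2.3.3, numpy 2.4.6, scipy 1.17.1, statsmodels 0.14.6 and matplotlib 3.10.9.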

Additional observations from a re-analysis of the deposited data

How the results depend on the processing

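No paired analysis was possible because each source has 1 array, and no array could be left out. The alternative that removes a trend on protein length was not run, because no protein table was used here, and a trend on genomic span, chosen after seeing the data, stands in its place. For bound minus unbound, the count of members at least 2-fold higher, 0 in the report, was 36 as deposited (61.4% of all genes), 5 with centring over all probe sets (14.6%), 2 after quantile normalization (10.7%), 8 at a 1.5-fold line (17.6%), and 1 each with no level filter, the stricter filter (99th percentile), the mean of all probe sets and the span trend removed. The count of lower members, 9 in the report, was 0 as deposited (1.56% of all genes), 3 of 67 after quantile normalization (7.26%), 4 of 67 after removal of the level trend with span 0.3 (9.38%), 21 at 1.5-fold (22.1%) and 3 at 3-fold (3.88%). For bound minus total, 20 members lower and 0 higher became 0 and 17 as deposited. Lower members numbered 4 after quantile normalization (3.39% of all genes), 5 after removal of the level trend (3.59%) and 5 at 3-fold (1.53%), and 1 was higher at 1.5-fold (8.2%). For unbound minus total, 9 lower members became 14 as deposited (16.0% of all genes), 4 after removal of the level trend (7.39%), 21 at 1.5-fold (22.3%) and 1 at 3-fold (2.6%), and 2 higher members became 7 at 1.5-fold (17.5%) and 1 at 3-fold (2.56%). As deposited, the members' medians were 1.04 (bound minus unbound) and 0.66 (bound minus total), and most negative values turned positive. In bound minus unbound only HSPA8, HSP90AB1, HSPD1, CCT8, DNAJC28 and DNAJC4 stayed negative. Of the members called lower, CCT2 (0.13), CCT3 (0.093) and CCT4 (0.13) turned in bound minus unbound, and BAG2 (0.018) and DNAJA2 (0.020) in bound minus total. The offset between arrays as deposited is by construction the source of these changes; for the others the cause was not tested. Signals near background limit HSPA2, HSPA1L, HSPA12B, CCT6B and DNAJC28. None of these passed the stricter filter, nor did HSPA4L, HSPA12A, DNAJC12 and DNAJC27.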

Other observations

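Several members hold snoRNAs, guides of rRNA and snRNA modification, within their spans in RefSeq, and 5 of these snoRNAs passed the level filter under a symbol of their own. They were singled out after their values were seen. For bound minus unbound, SNORD14C, within HSPA8, had a relative difference of -0.18, against -1.92 for its host. SNORD63, within HSPA9, had 0.15, against -0.37 for the host, and SNORA15, within CCT6A, had 0.22, against -0.91. The 2 within TCP1 differed from each other: SNORA29 had 0.45 and SNORA20 had -1.47, against -0.82 for TCP1. SNORA29 in unbound RNA (3.96, background 3.56) and SNORA20 in bound RNA (4.76, background 4.39) read close to background. The 5 members past the filter with a snoRNA in their span (HSPA8, HSPA9, CCT6A, TCP1, HSPD1) had a median of -0.91, and the 62 without had -0.21. Over all genes past the filter the medians were 0.06 for 382 such hosts and -0.07 for the rest.

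The 22 members past the filter for which RefSeq names at least 1 pseudogene had a median bound minus unbound difference of -0.24, and the 45 without had -0.23.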
